A study of Mus musculus with 12 samples.

Results

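The genes Acat2, Hmgcs1, Mvk, Pmvk, Mvd, Idi1, Fdps and Ggps1 were followed in mouse liver in the order in which their enzymes act. They were chosen by name as genes that lead from acetyl-CoA to farnesyl and geranylgeranyl diphosphate, with no threshold on a measured value. Earlier results of these data were known when they were chosen. All 8 were found among the 24062 genes of the count tables, and all 8 were among the 12481 genes that passed the filter of 1 CPM (read counts scaled to library size) in at least 2 of the 12 libraries.

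Liver RNA was sequenced from 12 female C57BL/6J mice. The 6 control mice received a control diet with 15% of its energy from fat, 65% from carbohydrate and 20% from protein, and 6 mice received the matched diet with BIBB-515 at 55 mg/kg of body weight for 10 days. BIBB-515 inhibits lanosterol synthase, the enzyme encoded by Lss, which closes the ring of the sterol skeleton several steps beyond these 8 genes. All mice arrived at 6 weeks of age, were acclimated for 2 weeks and ate the control diet for the last 3 days before the experiment. The labels name no transgene or other allele. The labels number the control libraries from 1 to 6 and those of BIBB-515 from 6 to 11, out of 11 mice that the study placed on each diet, and the cages and the time of day of sampling are not given in the sources used here.

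The mevalonate pathway turns acetyl-CoA into the 5-carbon units from which cholesterol, ubiquinone, dolichol and the lipid anchors of prenylated proteins are built. Acat2 encodes the cytosolic thiolase that joins acetyl-CoA units, and Hmgcs1 the cytosolic HMG-CoA synthase. Mevalonate kinase (Mvk), phosphomevalonate kinase (Pmvk) and mevalonate diphosphate decarboxylase (Mvd) convert mevalonate to isopentenyl diphosphate, which Idi1 isomerizes. Fdps makes farnesyl diphosphate, from which the sterol branch departs, and Ggps1 lengthens it to geranylgeranyl diphosphate. Many genes of this pathway are known targets of the sterol-sensing transcription factor SREBP-2, which is activated when cells are short of sterols.

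Between 22764819 and 31058370 reads were counted per library, and a two-sided exact permutation test of these totals between the diets gave p = 0.123 (n = 6 and 6). Over the 30 pairs of mice on one diet the chi-square per degree of freedom was at least 12.7, so each library was counted as a sample of its own. The hepatocyte markers were abundant, with a summed level of 144833 to 165047 CPM in the control mice and 112105 to 126184 CPM in the BIBB-515 mice, and 3 of 7 of them (Alb, Ttr and Fgb) were lower with BIBB-515. Of the stellate cell markers 2 of 6 (Lrat and Dcn) were lower, and none of the 5 bile duct, 5 macrophage, 6 endothelial and 3 leukocyte markers tested passed an FDR of 0.05 in the quasi-likelihood test of edgeR. By unadjusted p under 0.05 in that test the bile duct marker Spp1 was the one counted in these 4 lists. At an FDR of 0.05, 809 of all 12481 tested genes were lower with BIBB-515. The 5 adipocyte markers summed to at most 0.161 CPM in any library and fell under the filter. The part of these marker shifts in the results on the 8 genes was not tested, and in whole liver fewer cells of a type and less RNA per cell cannot be told apart.

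With BIBB-515, 3 of the 8 genes, Mvk, Idi1 and Pmvk, were higher at an FDR of 0.05 over all tested genes, and none was lower. Mvk and Idi1 were the genes with the largest log2 fold changes of the 8, at 1.12 and 1.16, and in both the lowest BIBB-515 mouse lay above the highest control mouse. Acat2, Hmgcs1, Mvd and Fdps had higher means with BIBB-515 without passing the threshold, and Ggps1, the last gene of the series, had a slightly lower mean. Over all tested genes 1705, or 13.7%, passed the FDR in either direction and 896, or 7.18%, were higher, against 37.5% of the 8 genes. As the 8 genes were chosen with earlier results of these data known, these shares are given as a description only. The median log2 fold change was 0.55 over the 8 genes and -0.01 over all tested genes. Groups without overlap, with the BIBB-515 mice higher, were found in 4.35% of all tested genes and in 2 of these 8. By unadjusted p under 0.05 the same test counted 4 of the 8 genes, Hmgcs1 being the additional one, and 3713 of all tested genes.

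Acat2, on chromosome 17 from 12943042 to 12960725 (mm10, minus strand), had a lowest, median and highest level of 61.9, 90.9 and 262 CPM in the control mice and of 164, 169.5 and 224 CPM in the BIBB-515 mice. In this thiolase gene 4 of the 6 control mice lay below all BIBB-515 mice, while control replicate 3 lay above all of them. The means were 127 ± 75.6 and 184 ± 25.2 CPM (SD, n = 6 per diet), and the log2 fold change of 0.53 ± 0.28 (SE) did not pass the threshold (edgeR, FDR 0.219). Hmgcs1, on chromosome 13 from 119690351 to 119708260 (plus strand), spanned 226 to 646 CPM with a median of 473 in the control mice and 567 to 894 CPM with a median of 647 in the BIBB-515 mice. In this HMG-CoA synthase gene 3 BIBB-515 mice exceeded the highest control mouse and 3 control mice lay below the lowest BIBB-515 mouse. Its means were 444 ± 196 and 681 ± 126 CPM, with a log2 fold change of 0.62 ± 0.25 (SE, edgeR, FDR 0.119), which was not past the threshold.

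Mvk, on chromosome 5 from 114444306 to 114460590 (plus strand), was at 16.2 CPM in the lowest, 23.3 CPM in the median and 42.8 CPM in the highest control mouse. With BIBB-515 the lowest, median and highest mice were at 45.8, 55.9 and 60.9 CPM, so the diets did not overlap. The level of this kinase transcript rose from 25.2 ± 10.3 to 54.8 ± 5.08 CPM, a fold change of 2.18 (log2 1.12 ± 0.20 SE, edgeR, FDR 0.00233). Pmvk, on chromosome 3 from 89459118 to 89469009 (plus strand), ranged from 61.2 to 158 CPM around a median of 91.3 in the control mice and from 127 to 158 CPM around 139.6 in the BIBB-515 mice. For the second kinase of the pathway 5 of the 6 control mice lay below every BIBB-515 mouse, and control replicate 3 was the exception. It rose from 96.5 ± 34.2 to 142 ± 11.9 CPM, a fold change of 1.47 (log2 0.56 ± 0.17 SE, edgeR, FDR 0.0473). This call lay close to the threshold and was kept in 1 of the 12 fits that left out a mouse, the fit without control replicate 3 (FDR 0.00115), while in the other fits its FDR was at most 0.0969.

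Mvd, on chromosome 8 from 122433596 to 122443422 (minus strand), covered a wide range in the control mice, from 17.1 through a median of 46.2 to 86.1 CPM, and a narrow one of 52.2 through 62.9 to 69.5 CPM with BIBB-515. The BIBB-515 mice lay inside the control range for this decarboxylase gene, above 3 of the control mice. Its means were 47.0 ± 28.4 and 61.5 ± 7.33 CPM, with a log2 fold change of 0.39 ± 0.32 (SE, edgeR, FDR 0.459). Idi1, on chromosome 13 from 8885606 to 8892396 (plus strand), had its lowest, median and highest control mice at 15.4, 29.4 and 50.7 CPM, and its BIBB-515 mice at 56.2, 68.9 and 80.3 CPM. For this isomerase gene the diets were again apart. Its level rose from 31.0 ± 13.8 to 69.1 ± 9.86 CPM, a fold change of 2.23 (log2 1.16 ± 0.24 SE, edgeR, FDR 0.00547).

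Fdps, on chromosome 3 from 89093588 to 89101967 (minus strand), was at 223 to 755 CPM with a median of 363 in the control mice and at 528 to 713 CPM with a median of 552 with BIBB-515. All BIBB-515 mice exceeded the mean of the controls for this farnesyl diphosphate synthase gene, but none exceeded the highest control mouse. The means were 436 ± 209 and 587 ± 72.5 CPM, a log2 fold change of 0.43 ± 0.24 (SE, edgeR, FDR 0.254). Ggps1, on chromosome 13 from 14052445 to 14063401 (minus strand), was at 5.89 to 8.53 CPM with a median of 8.07 in the control mice and 5.17 to 8.50 CPM with a median of 6.89 in the BIBB-515 mice. The diets overlapped almost fully for this geranylgeranyl diphosphate synthase gene. Its means were 7.65 ± 1.05 and 6.86 ± 1.13 CPM, a log2 fold change of -0.16 ± 0.12 (SE, edgeR, FDR 0.421). It rests on 126 to 268 reads per library, against 329 to 28205 for the other genes.

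**Figure D1:**
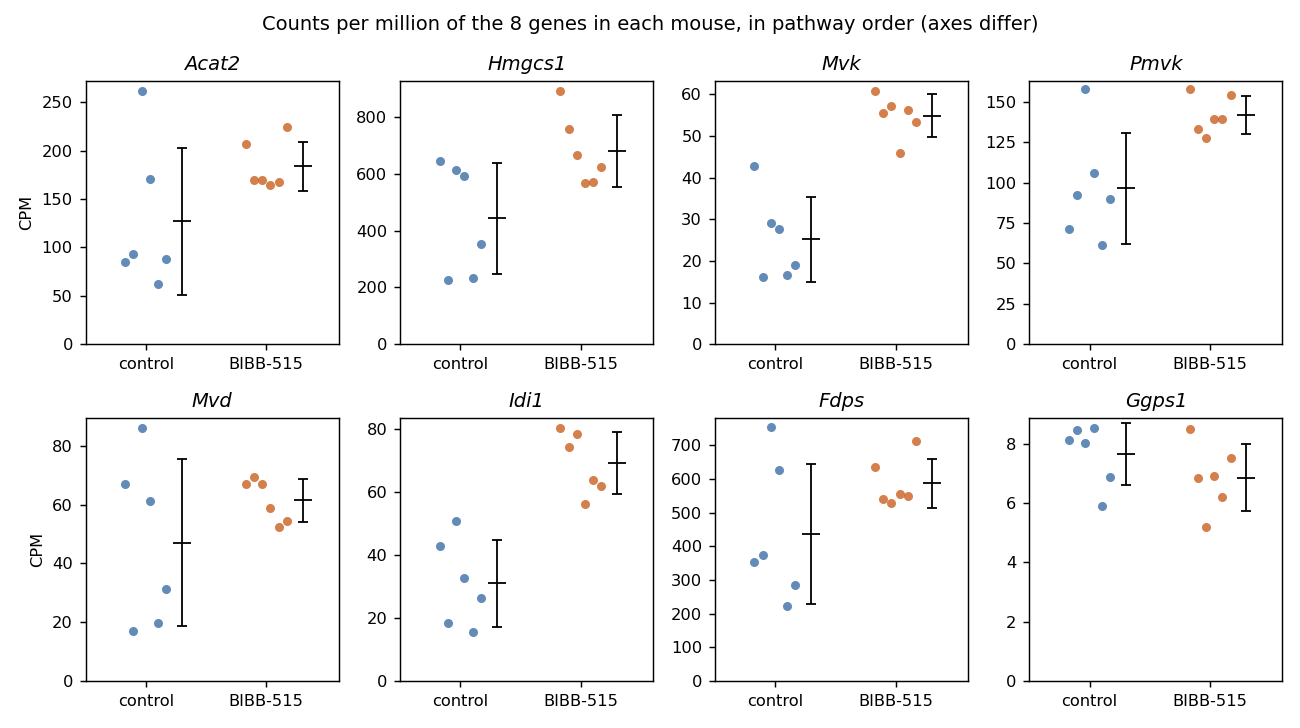
Each point is the level of one gene in one mouse in CPM (y axis, starting at 0 and scaled per gene), with the control mice in blue and the BIBB-515 mice in orange, and the black marks are means and SD of 6 mice. Mvk and Idi1 are the panels in which the diets do not overlap, and in Acat2, Pmvk, Mvd, Fdps and Ggps1 the highest control mouse lies above the highest BIBB-515 mouse.

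Without control replicate 3, the highest control mouse in 5 of the 8 genes, the number called was 5 in place of 3. Acat2 then had a log2 fold change of 0.89 (edgeR, FDR 0.0106) and Fdps one of 0.67 (FDR 0.0449). Mvk and Idi1 passed the threshold in all 12 fits that left out a mouse. The 7 other settings of normalization, filter, test or count table called Mvk, Pmvk and Idi1 each time. For Pmvk the FDR reached 0.04997 among them, in edgeR with upper-quartile scaling.

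**Figure D2:**
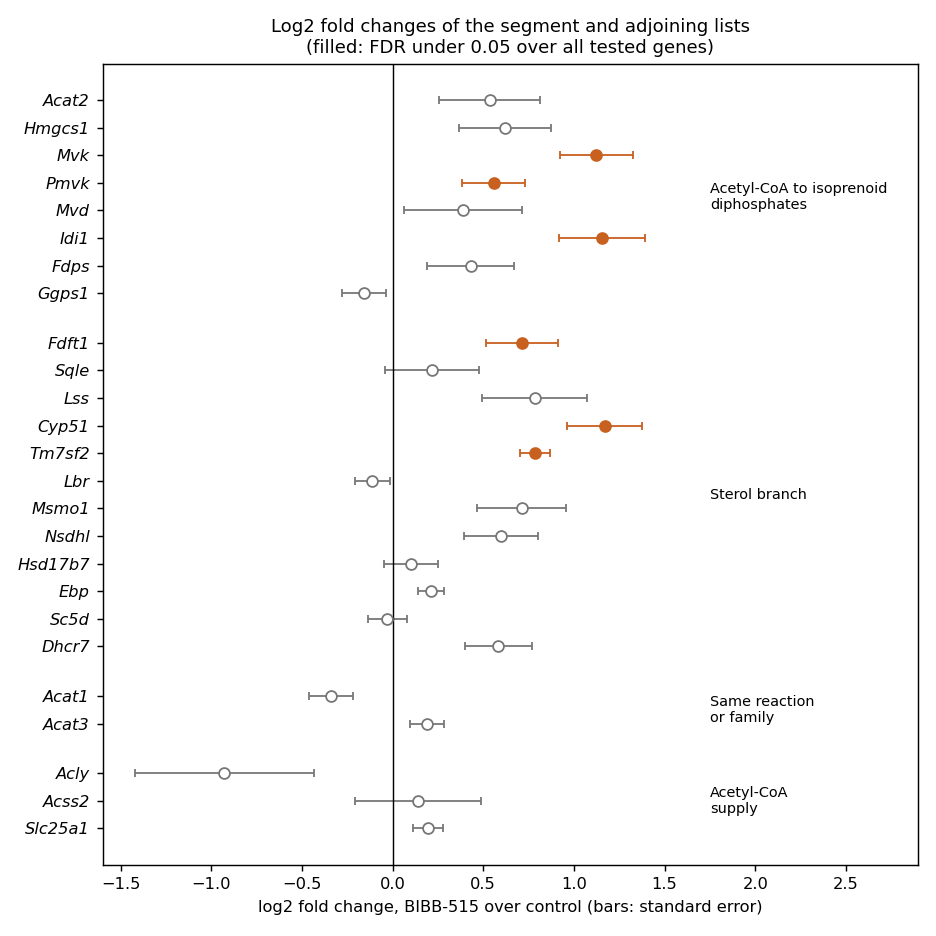
The log2 fold change of BIBB-515 over control (x axis, bars are 1 SE) is drawn for the 8 genes and for genes of the sterol branch, of the same reactions or families and of acetyl-CoA supply that are reported here, filled in orange where the FDR over all tested genes is under 0.05. Mvk and Idi1 lie at 1.12 and 1.16, next to Cyp51 at 1.17 in the sterol branch, and Ggps1 lies at -0.16.

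Levels per kilobase of exon set the 8 transcripts beside each other on a scale that depends on their annotated lengths. In the control mice Fdps was at 298 ± 143 CPM per kilobase, Hmgcs1 at 124 ± 54.9, Pmvk at 64.1 ± 22.7, Acat2 at 61.1 ± 36.4, Mvd at 25.2 ± 15.2, Mvk at 15.2 ± 6.18, Idi1 at 10.8 ± 4.81 and Ggps1 at 3.23 ± 0.443. Of the neighbors in this order, the interval of 1 SD around the mean was separate between Idi1 and Ggps1 and overlapped in the other pairs. In the BIBB-515 mice the order was Fdps at 402 ± 49.6 CPM per kilobase, Hmgcs1 at 190 ± 35.3, Pmvk at 94.3 ± 7.90, Acat2 at 88.5 ± 12.1, Mvk at 33.1 ± 3.06, Mvd at 33.0 ± 3.93, Idi1 at 24.1 ± 3.44 and Ggps1 at 2.89 ± 0.477. There the 1 SD intervals overlapped between Pmvk and Acat2 and between Mvk and Mvd. Mvk stood below Mvd by mean in the control mice and level with it with BIBB-515. The level of Idi1 on this scale depends on its annotated length, since exon 5 takes 2079 of its 2867 exon bases and held 14.2 CPM in the control mice, as did the 93 bases of exon 3. In Ggps1 exon 4 takes 2011 of 2371 exon bases and held 6.77 CPM there, against 0.653 CPM on the 71 bases of exon 3. The distance between Idi1 and Ggps1 on this scale therefore depends on the annotation as well.

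To ask whether neighboring steps changed to different extents, the log2 ratio of their CPM was formed within each library, where normalization cancels, without scaling to transcript length, and compared between the diets by exact permutation (two-sided, 7 ratios). The ratio of Hmgcs1 to Mvk fell from 4.10 ± 0.29 to 3.62 ± 0.19 (SD, n = 6 per diet, exact p = 0.00866, adjusted p = 0.0303), so the kinase gained on the synthase. The ratio of Mvd to Idi1 fell from 0.47 ± 0.38 to -0.17 ± 0.13 (exact p = 0.00649, adjusted p = 0.0303), so Idi1 gained on Mvd. The ratio of Idi1 to Fdps rose from -3.81 ± 0.49 to -3.09 ± 0.29 (exact p = 0.0173, adjusted p = 0.0341). The ratio of Fdps to Ggps1 rose from 5.71 ± 0.53 to 6.43 ± 0.17 (exact p = 0.0195, adjusted p = 0.0341). The ratio of Mvk to Pmvk was -1.96 ± 0.65 and -1.37 ± 0.17 (exact p = 0.0628, adjusted p = 0.0879), and control replicate 1 alone held the value of -0.73 that lay above all others of both diets. For Acat2 to Hmgcs1 and Pmvk to Mvd the mean log2 difference between diets was -0.03 (exact p = 0.935) and -0.01 (exact p = 0.974). All 7 ratios overlapped between the diets. These calls are fragile to single mice, since those of Hmgcs1 to Mvk and Mvd to Idi1 each held in 9 of 12 fits that left out a mouse, that of Idi1 to Fdps in 4 and that of Fdps to Ggps1 in 2, with adjusted p of at most 0.0682, and without control replicate 1 the ratio of Mvk to Pmvk had an adjusted p of 0.0303.

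**Figure D3:**
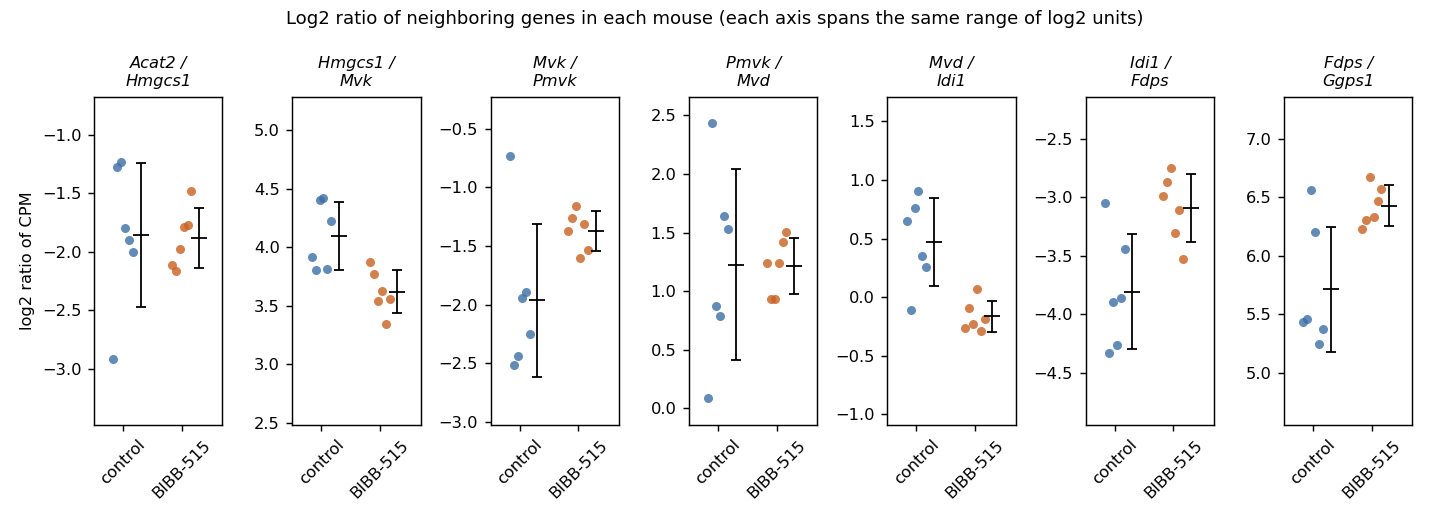
Each point is the log2 ratio of the CPM of a gene to that of the next gene of the pathway in one mouse (y axis, every panel spanning the same number of log2 units), with control mice in blue, BIBB-515 mice in orange and means with SD in black. The ratio of Mvd to Idi1 moves from 0.47 to -0.17 and that of Idi1 to Fdps from -3.81 to -3.09, while Pmvk to Mvd keeps nearly the same mean with a much wider spread in the control mice.

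The 8 genes varied more between control mice than between BIBB-515 mice. The SD of log2 CPM was larger in the control diet for 7 of the 8, with a ratio of control to BIBB-515 SD of 5.63 for Mvd, 4.04 for Acat2, 3.98 for Mvk, 3.97 for Pmvk, 3.96 for Fdps, 3.22 for Idi1 and 2.78 for Hmgcs1. For Ggps1 it was 0.87. Over all tested genes the control SD was the larger in 77.8%, the ratio was above 2 in 27.9% and its median was 1.48, so that a wider spread in the control mice was a property of most genes. Among all tested genes the ratios of these 7 lay between percentile 88.9 for Hmgcs1 and percentile 99.2 for Mvd, and that of Ggps1 lay at percentile 14.9. No test of this difference in spread was made.

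Within the control diet 4 of the 6 mice lay on one side of the diet mean in all 8 genes. How often other sets of 8 genes do so was not counted. Control replicates 3 and 4 lay above the mean of their diet in all 8 genes, and control replicates 5 and 6 lay below it in all 8. Replicate 3 was the highest control mouse for Acat2, Pmvk, Mvd, Idi1 and Fdps, and replicate 5 the lowest for Acat2, Pmvk, Idi1, Fdps and Ggps1. Averaged over the 8 genes, replicate 3 stood 0.74 log2 units above and replicate 5 stood at -0.73 relative to the diet mean, while in the BIBB-515 mice this average ran from -0.13 in replicate 9 to 0.21 in replicate 6. Replicate 1 was mixed, the highest control mouse for Hmgcs1 and Mvk and below the mean for Acat2, Pmvk and Fdps. Of the BIBB-515 mice, replicate 6 was above the mean in all 8 genes and the highest in 5.

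**Figure D4:**
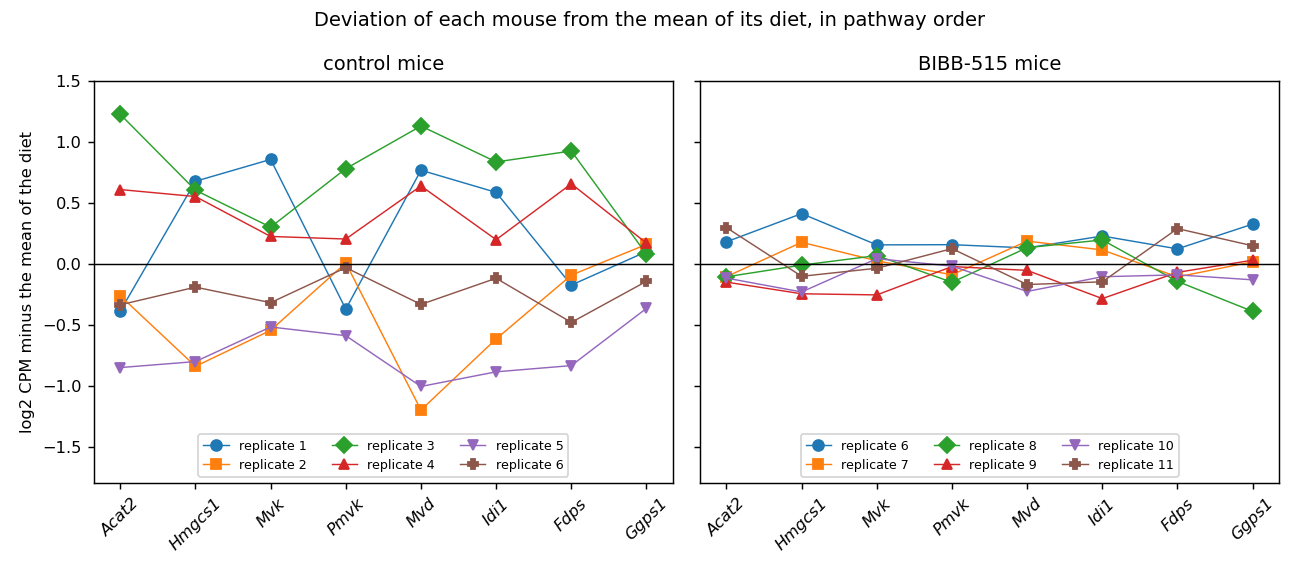
Each line is one mouse, and each point is its log2 CPM minus the mean of its diet (y axis) for the 8 genes in pathway order (x axis), with the control mice on the left and the BIBB-515 mice on the right. Control replicates 3 and 4 stay above 0 and replicates 5 and 6 below 0 for all 8 genes, and the BIBB-515 mice lie in a narrower band.

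Across the 6 control mice all 28 pairs of the 8 genes had a positive Pearson correlation of log2 CPM, with a median of 0.71, and across the 6 BIBB-515 mice 21 of 28 pairs did, with a median of 0.34. The same counts were not made over all tested genes, and the difference between the diets was not tested. The BIBB-515 mice also had the narrower spread in 7 of the 8 genes. The points of a pair share their library and its normalization. For neighboring genes 14 correlations were computed over both diets. Hmgcs1 and Mvk had a Pearson r of 0.92 (exact permutation p = 0.00278, adjusted p = 0.0389) and a Spearman rho of 1 (exact permutation p = 0.00278) in the control mice, and r was 0.87 without the pair of mice farthest from the median of Hmgcs1. Mvd and Idi1 had an r of 0.97 (exact permutation p = 0.00833, adjusted p = 0.0583) and a rho of 0.94 (exact permutation p = 0.0167), and r was 0.93 without the corresponding pair of mice. The other 5 neighboring pairs in the control mice had an r of 0.21 to 0.74 and a rho of 0.20 to 0.71, with exact permutation p of at least 0.0694 for r and 0.136 for rho and adjusted p of at least 0.2. Among them Mvk and Pmvk had the lowest r, 0.21 (0.91 without the 2 mice farthest from the median). Without such a pair of mice r went from 0.66 to 0.31 for Acat2 and Hmgcs1, from 0.56 to -0.24 for Pmvk and Mvd and from 0.73 to 0.19 for Idi1 and Fdps, so these relations rest on those mice, and from 0.74 to 1.00 for Fdps and Ggps1. In the BIBB-515 mice the lowest adjusted p of the 7 neighboring pairs was 0.2 (exact permutation).

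The genes whose deviations from the diet mean were most like the mean deviation of the 8, among 11161 genes whose log2 CPM averaged 1 or more, came in 5 of 6 cases from the sterol branch. Sqle, which encodes squalene epoxidase, had a correlation of 0.98 over the 12 mice. Fdft1, the squalene synthase gene, Cyp51, the lanosterol demethylase gene, and Nsdhl, a sterol dehydrogenase gene, had 0.96, 0.96 and 0.96, and Lss had 0.94. The transcript 4930483K19Rik, whose annotated exons share 188 bases with those of Lss, had 0.95. Within the control mice r was 0.98 for Sqle, 0.97 for Fdft1, 0.99 for Cyp51, 0.96 for Nsdhl, 0.94 for Lss and 0.96 for 4930483K19Rik. Within the BIBB-515 mice it was 0.97, 0.91, 0.58, 0.90, 0.98 and 0.86 in the same order, lowest for Cyp51 (n = 6 per diet). Beyond these 6 the order did not stay with the sterol branch. Dcbld2 and Dync1i2, not in that list, held ranks 8 and 9 at 0.93 and 0.93 over the 12 mice. Sc5d of the sterol branch came at rank 15 with 0.91. Within the control mice Dcbld2 and Dync1i2 had 0.98 and 0.97, and within the BIBB-515 mice 0.17 and 0.59. This likeness was thus not particular to the sterol branch. The difference between the diets in these correlations was not tested. Sqle resembled the 8 genes in its deviations without a called change between diets, at 120.1 ± 58.3 CPM in the control mice and 139.6 ± 16.9 CPM with BIBB-515 (log2 fold change 0.22 ± 0.26 SE, edgeR, FDR 0.621).

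The 3 called genes can be followed exon by exon in the authors' tables of reads per exon. In Mvk 10 exons had a mean of at least 20 reads per library, and all 10 were higher by mean with BIBB-515, with log2 ratios of the diet means between 1.02 and 1.21 and no overlap between the diets in 7 of them. The 5 exons of Idi1 had log2 ratios between 1.04 and 1.22, with no overlap in 3. In Pmvk 5 of 6 exons were higher by mean, with log2 ratios up to 0.70, and the exception was exon 2, at chromosome 3 from 89459571 to 89459886, with 20.5 reads per library on average and a log2 ratio of -0.13. In the uncalled genes all counted exons were higher by mean as well, 8 in Acat2, 11 in Hmgcs1, 10 in Mvd and 11 in Fdps, and the 1 exon of Ggps1 with enough reads was lower. Exon 5 of Acat2 held 0.667 reads per library on average.

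The counting left out reads that map to several places, so a gene with copies elsewhere can lose reads. In the transcripts of Acat2 39.1% of all stretches of 50 bases occur in other genes, among them its close relative Acat3, whereas the share was 0% in Pmvk and Mvd and 0.712% in Mvk. The share was 25.3% in Idi1 and 26.2% in Fdps, mostly in genes with no name beyond a model number, 11.6% in Hmgcs1 and 9.58% in Ggps1. No exon of the 8 genes overlaps an exon of another gene in the authors' annotation. In the tables that also count primary alignments and reads on overlapping genes, the counts of the 8 genes differed from the main ones by a factor of at most 1.003.

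Mvk, Mvd and Ggps1 start close to a gene that runs the other way. Mmab, a gene of cobalamin metabolism whose start lies 279 bases from that of Mvk, was at 33.4 ± 9.62 CPM in the control mice and 40.5 ± 5.45 CPM with BIBB-515, and its log2 fold change of 0.28 ± 0.16 (SE, edgeR, FDR 0.270) was not past the threshold that Mvk passed. Whether Mvk and Mmab differ in response was not tested. Arid4b, a chromatin gene 383 bases from Ggps1, was lower with BIBB-515, at 18.1 ± 0.454 against 23.0 ± 2.95 CPM (log2 fold change -0.34 ± 0.08 SE, edgeR, FDR 0.00921). The transcript 9330133O14Rik, 234 bases from Mvd, had a log2 fold change of -0.36 (edgeR, FDR 0.366) at about 1 CPM.

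The 250 bases before the annotated start are given for Mvk and Idi1, the genes whose diets did not overlap, for Acat2 and Hmgcs1, the genes with a match to the sterol element core, and for Ggps1, the gene with the lower mean. They are RefSeq sequence of build GRCm38.p6 in the direction of transcription, and windows were found for 7 of the 8 genes. The positions are chr17:12960726-12960975 (minus strand) for Acat2, chr13:119690101-119690350 (plus strand) for Hmgcs1, chr5:114444019-114444268 (plus strand) for Mvk, chr13:8885356-8885605 (plus strand) for Idi1 and chr13:14063489-14063738 (minus strand) for Ggps1. Capitals mark matches on either strand to CACNCCAC, a core found in sterol regulatory elements, and to CCAAT, the box bound by NF-Y, which reads ATTGG on the other strand.
Acat2: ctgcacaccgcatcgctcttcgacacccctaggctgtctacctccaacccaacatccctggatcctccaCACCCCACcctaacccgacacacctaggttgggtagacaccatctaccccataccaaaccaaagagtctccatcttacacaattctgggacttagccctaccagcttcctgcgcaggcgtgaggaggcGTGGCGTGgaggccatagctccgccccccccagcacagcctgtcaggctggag
Hmgcs1: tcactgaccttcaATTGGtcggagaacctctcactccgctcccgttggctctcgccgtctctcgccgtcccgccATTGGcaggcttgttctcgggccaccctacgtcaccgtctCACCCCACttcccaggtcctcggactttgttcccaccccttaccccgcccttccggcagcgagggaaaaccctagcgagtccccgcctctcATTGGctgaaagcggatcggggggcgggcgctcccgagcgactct
Mvk: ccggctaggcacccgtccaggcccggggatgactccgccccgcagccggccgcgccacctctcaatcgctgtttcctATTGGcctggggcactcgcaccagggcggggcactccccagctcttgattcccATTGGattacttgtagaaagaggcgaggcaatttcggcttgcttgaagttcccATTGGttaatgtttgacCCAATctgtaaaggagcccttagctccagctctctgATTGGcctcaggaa
Idi1: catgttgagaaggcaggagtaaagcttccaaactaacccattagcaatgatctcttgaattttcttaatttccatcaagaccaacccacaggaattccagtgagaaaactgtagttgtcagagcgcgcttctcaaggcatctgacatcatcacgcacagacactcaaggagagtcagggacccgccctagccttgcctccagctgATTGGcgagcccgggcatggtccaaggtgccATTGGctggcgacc
Ggps1: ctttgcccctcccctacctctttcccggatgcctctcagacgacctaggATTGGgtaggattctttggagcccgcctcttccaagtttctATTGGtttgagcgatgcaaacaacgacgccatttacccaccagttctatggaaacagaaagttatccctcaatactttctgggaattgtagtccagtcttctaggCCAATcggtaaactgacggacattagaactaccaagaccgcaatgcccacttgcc

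CACNCCAC occurred in 5.29% of all 32851 windows of this length, and it was found in Acat2 181 and 53 bases before the start and in Hmgcs1, 136 bases before it. Neither Mvk nor Idi1 holds these letters in its window, which says nothing of the factor that may act on them. CCAAT occurred in 33.8% of all windows and in 6 of the 7 genes with one, with 5 matches in Mvk, 3 each in Hmgcs1 and Ggps1 and 2 each in Idi1 and Mvd. Pmvk counts among the 6 by a window before position 89454541, far from its start at 89459118 in the count tables. Its other window, before 89459571, lies past that start, inside the annotated gene, and has no match. Neither window covers the bases just before the start in the count tables, so those were not searched. GGGCGG, the core of the GC box, occurred in 32.7% of all windows and in 5 of the 7 genes. The motifs share no base with each other in the windows printed. Ggps1, with 3 CCAAT matches, was the gene of the 8 with the lower mean with BIBB-515. For Mvk and Ggps1 the RefSeq start differs from that in the count tables (114444269 and 114444306 for Mvk, 14063488 and 14063401 for Ggps1).

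Genes that feed, double or draw on the segment were set beside it. Of the genes of the same reaction or family, Acat1, which encodes the mitochondrial thiolase, was at 501 ± 99.6 CPM in the control mice and 396 ± 37.9 CPM with BIBB-515 (log2 fold change -0.34 ± 0.12 SE, edgeR, FDR 0.0730). It did not pass the threshold, and its mean was lower with BIBB-515 where that of Acat2 was higher. Acat3 had a log2 fold change of 0.19 (FDR 0.200), with 571 bases of its exons overlapping those of Tcp1, and Idi2, the second isomerase gene, had at most 1 read in any library and was not tested.

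None of the 3 genes of cytosolic acetyl-CoA supply passed the threshold in edgeR, although Slc25a1, the citrate carrier gene, had an unadjusted p of 0.0322. Acly, which cleaves citrate to acetyl-CoA, was at 1025 ± 1052 CPM in the control mice, where replicate 3 alone reached 3085 CPM, and at 539 ± 211 CPM with BIBB-515 (log2 fold change -0.93 ± 0.49 SE, FDR 0.224). Acss2, which makes acetyl-CoA from acetate and shares 113 bases of exon with Acss2os, had a log2 fold change of 0.14 (FDR 0.827), and Slc25a1 one of 0.20 (FDR 0.128).

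In the sterol branch 4 of 13 tested genes were higher with BIBB-515 and none was lower, with a median log2 fold change of 0.60. Over all tested genes 7.18% were higher. Among them were Tm7sf2, a sterol reductase gene, which rose from 215 ± 25.6 to 370.4 ± 24.5 CPM (log2 0.79 ± 0.08 SE, edgeR, FDR 2.96e-05), and Cyp51, which rose from 226 ± 87.2 to 508 ± 51.6 CPM (log2 1.17 ± 0.21 SE, FDR 0.00223). Fdft1, the first gene of the branch, was also called (log2 0.71 ± 0.20 SE, FDR 0.0290). Of its exons 774 bases overlap those of Ctsb, and the main counts leave out reads shared by overlapping genes. Tm7sf2 shares 9 bases with Vps51.

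The other uses of isoprenoids showed no called gene. Among the genes of the ubiquinone side chain 0 of 3 passed an FDR of 0.05 in edgeR, of dolichol 0 of 4, of protein prenylation 0 of 8 and of other isoprenoid users 0 of 3, with median log2 fold changes of 0.05, 0.03, 0.02 and 0.17. By unadjusted p under 0.05 in the same test only Trit1, which isopentenylates transfer RNA, was counted among these genes, at 13.6 ± 1.28 CPM in the control mice and 15.3 ± 1.27 CPM with BIBB-515. The genes with the lowest p of the other lists were Pdss2 of the ubiquinone side chain at a log2 fold change of 0.12 (edgeR, FDR 0.505), Srd5a3 of dolichol synthesis at 0.17 (FDR 0.182), Nus1 of dolichol synthesis at -0.10 (FDR 0.260) and Rabggta, a subunit gene of the prenyltransferase of Rab proteins, at -0.14 (FDR 0.268).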

How the data were processed

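Liver RNA-seq libraries of 12 mice were analysed, 6 per diet, grouped by their labels. Per the file headers, the authors deposited whole-number read counts per gene and per exon, made with featureCounts 1.6.3 on exons of a UCSC annotation of mm10 without a strand option; the main gene tables hold neither multi-mapped reads nor reads shared by overlapping genes. Submitters' processing notes name STAR 2.5.3a. Tables per transcript were not used.

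The filter kept genes reaching 1 CPM in 10% of the libraries, rounded up to 2 of 12. After TMM normalization, edgeR 4.0.16 (R 4.3.3) was fitted with diet as the only term and its quasi-likelihood test applied, with Benjamini-Hochberg adjustment over 12481 genes. The filter and TMM follow the methods for the human tissues of the study; the test for the mouse libraries is not given in the sources used here. The SE of a log2 fold change was derived from the test, as its absolute value divided by the square root of the F statistic. CPM use TMM-scaled library sizes. Single values were compared by exact permutation of the 924 labelings, two-sided (smallest p 0.00216). On simulated counts of 12374 genes for BIBB-515 against control, with 200 changed 2-fold, the test recovered 93.5% with 4.10% false among those called. The simulation drew genes independently and gave each gene the same dispersion in both diets. In the measured data the control SD was the larger in 77.8% of tested genes, so these rates need not hold there. Sequences shared between genes were counted in GENCODE M21 transcripts as words of 50 bases, and promoters were read from RefSeq.

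The members and gene lists were chosen with earlier results of these data known. Named genes are the 8 members, all genes of the same reaction or family and of acetyl-CoA supply, up to 3 genes of lowest p of each other pathway list, genes starting within 1000 bases of a member and the 6 genes most like the members across mice; some are not reported here. Fdft1, Dcbld2, Dync1i2, Sc5d and the genes with an unadjusted p under 0.05 were named after their values were seen. Alternatives were DESeq2 1.42.0, upper-quartile scaling, limma-voom 3.58.1, the likelihood ratio test, no filter, 1 CPM in 6 or more libraries, the tables of primary alignments and each mouse left out in turn. The common biological coefficient of variation was 0.143. The labels give no sequencing batch, and other data of the study are not analysed here.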

Additional observations from a re-analysis of the deposited data

Results flagged for a closer look

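In 90 groups of 6 mice, 5 held a mouse set apart from the rest, meaning that its gap to the nearest mouse, divided by the range of the group, was above the critical value of Dixon's test, and chance flags about 1 in 20 groups, or 4.5 of 90. All 5 were in the control diet. The log2 ratio of Mvk to Pmvk in control replicate 1 was -0.73 with the nearest mouse at -1.89 (gap over range 0.649). Acly reached 3085 CPM in control replicate 3 with the nearest mouse at 1068 CPM (0.718). Nus1 was at 61.3 CPM in control replicate 1 with the nearest at 53.0 CPM (0.794), and 9330133O14Rik at 2.79 CPM in the same mouse with the nearest at 1.62 CPM (0.630). Icmt, a prenylated protein methyltransferase gene, was at 31.1 CPM in control replicate 4 with the nearest at 44.2 CPM (0.758). No level of the 8 genes themselves met this criterion.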

How the results depend on the processing

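The 7 settings other than leaving out a mouse (DESeq2, upper quartile, limma-voom, likelihood ratio test, no filter, the stricter filter and the tables of primary alignments) called 3 of the 8 genes each time, and 1489 to 2244 of all genes. With a mouse left out, 1199 to 1865 genes were called in all and 2 to 5 of the 8, 5 being without control replicate 3. The log2 fold changes then ranged from 0.40 to 0.89 for Acat2, 0.48 to 0.76 for Hmgcs1, 1.02 to 1.34 for Mvk, 0.46 to 0.76 for Pmvk, 0.21 to 0.65 for Mvd, 1.03 to 1.36 for Idi1, 0.30 to 0.67 for Fdps and -0.23 to -0.09 for Ggps1, without a change of sign. The FDR of Pmvk was over 0.05 in all these fits except that without control replicate 3, and the cause was not tested. The differences between diets of the log2 ratios ranged from -0.24 to 0.10 for Acat2 to Hmgcs1 and from -0.24 to 0.23 for Pmvk to Mvd, which changed sign, and, in one direction, from -0.53 to -0.41 for Hmgcs1 to Mvk, 0.48 to 0.83 for Mvk to Pmvk, -0.75 to -0.55 for Mvd to Idi1, 0.61 to 0.87 for Idi1 to Fdps and 0.62 to 0.89 for Fdps to Ggps1. The median ratio of control to BIBB-515 SD of 3.97 ranged from 2.84 to 4.21. No paired analysis was made, because the diets were given to separate mice and a shared replicate number does not make a pair. Idi2 had too few reads for a test.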
